A study of Mus musculus with 12 samples.

Results

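Ion channel genes were examined in single cultured cardiac progenitor cells (CPCs). The genes were taken by symbol: potassium channel genes (Kcn), voltage-gated calcium channel subunits (Cacna, Cacnb and Cacng), voltage-gated sodium channel subunits (Scn), the TRPC, TRPV and TRPM families, HCN channels, Piezo1 and Piezo2, the IP3 receptors Itpr1, Itpr2 and Itpr3, and Orai1 and Stim1. The rule took 166 of the 21729 genes in the table and used no measured value. Of these, 128 encode pore-forming subunits and 38 encode accessory or regulatory proteins, such as beta subunits, Kv channel-interacting proteins and the calcium sensor Stim1, so not every member is itself a channel.

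The cells came from hearts of FVB mice that were 12 weeks old and female according to the labels. They were c-Kit+ cells of the non-myocyte fraction, depleted of blood lineages by magnetic sorting and grown on gelatin for 5 passages with leukemia inhibitory factor, basic fibroblast growth factor and epidermal growth factor. Full-length cDNA of 12 hand-picked cells was sequenced, and all 12 belong to 1 group, cultured CPC. The study asked how culture changes such cells, but fresh cells were not analysed here. The labels name no culture or animal, and the methods describe pooled hearts, so the 12 cells count as 1 sample and no test was made. The values below describe these 12 cells.

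Total counts ran from 3453708 to 5690184 per cell. For a gene at 0, the count allows a level of up to 0.527 to 0.869 CPM (counts scaled to 1000000 per cell), which is 3 counts in the deepest and the shallowest cell. Reads carry no molecular identifiers, so such limits cover counting error only. The Y-linked genes Ddx3y and Eif2s3y were counted in all 12 cells, against the female label. The summed level of 4 Y-linked genes was 9.76 CPM in cell 3, where Kdm5d and Uty had no counts, and 63.7 to 267 CPM in the other cells, so cell 3 stood apart in this respect. Cell 10 stood apart by endothelial transcripts: 10 endothelial markers summed to 9810 CPM there, whereas no other cell exceeded 58.5 CPM, with Cldn5 and Vwf at 0 in every cell. Fibroblast markers summed to 219 CPM in cell 10 and to 709 to 6764 CPM elsewhere. The markers did not all go this way. Col1a1, Col1a2, Col3a1 and Ddr2 were lowest in cell 10, but Pdgfra, at 175 CPM there, was exceeded only in cell 3, at 276 CPM. Where leaving out cell 10 moved the mean of a gene described with one by over 1.5 times, both values are given.

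As background, ion channels let sodium, potassium, calcium or other ions cross a membrane along their gradient. Cardiomyocytes depend on voltage-gated sodium, calcium and potassium channels for each action potential, and pacemaker cells also on HCN channels. Non-excitable cells, such as fibroblasts, raise cytosolic calcium mainly by other routes: IP3 receptors release it from the endoplasmic reticulum, Stim1 senses the empty store, and Orai1 then opens in the plasma membrane. TRP channels are mostly cation channels that respond to lipids, temperature, calcium or stretch, and Piezo channels open under mechanical force.

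Most ion channel genes were silent or rare in cultured CPCs, and a small set was counted in each cell. Of the 166 genes, 10 had at least 1 count in all 12 cells, 70 in some cells and 86 in none. Over all 21729 genes the same classes held 7680, 6782 and 7267 genes. Thus 6.02% of the ion channel genes were counted in every cell, against 35.3% of all genes, and 51.8% were counted in no cell, against 33.4%. A count was present in 370 of 1992 gene-by-cell values (18.6%), against 50.5% over all genes. Low counts were common among them: 134 of the 370 values (36.2%) had 1 to 10 counts, against 11.4% over all genes.

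The genes counted in every cell included Trpm7, Cacnb3, Orai1, Cacna2d1, Piezo1, Stim1, Itpr2, Itpr3 and Scn2a. Scn2a had only 1 or 2 counts in cells 3, 8 and 10, and at a threshold of 3 counts 9 genes were counted in every cell. Only 22 genes reached 10 CPM in any cell, and 5 reached it in all 12 cells, among them Trpm7, Cacnb3, Orai1 and Piezo1. These were 13.3% and 3.01% of the ion channel genes, whereas 49.2% of all genes reached 10 CPM in a cell and 21.5% in every cell. Without cell 10, 11 ion channel genes were counted in every remaining cell and 87 in none. Without cells 3 and 10, which stood apart in Y-linked and endothelial genes, the numbers were 11 and 91.

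**Figure D1:**
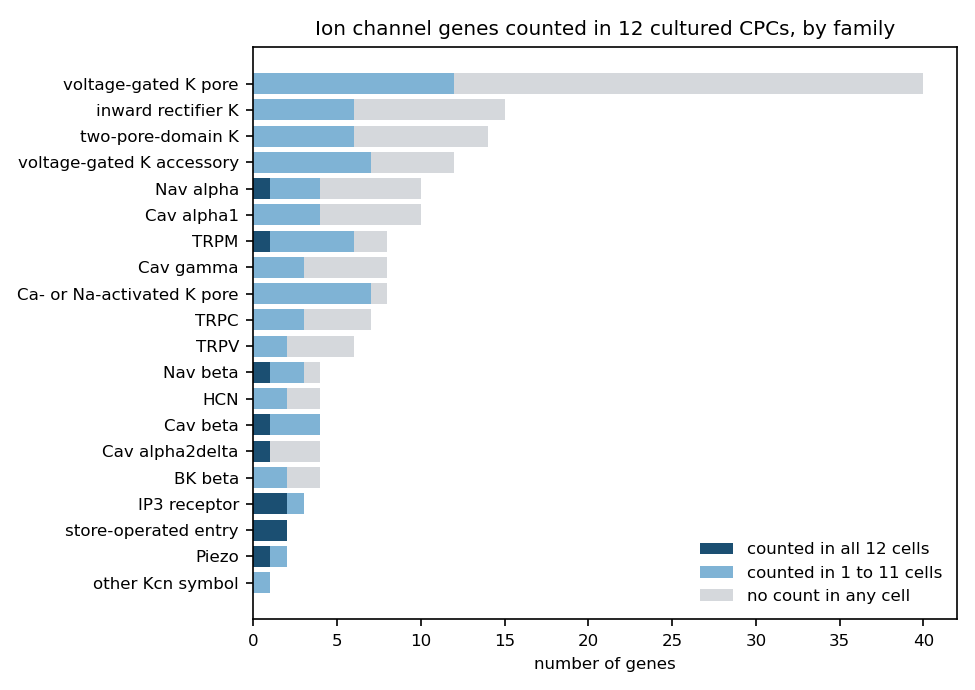
Number of ion channel genes (horizontal axis) in each family, split into genes counted in all 12 cells, in 1 to 11 cells, and in none. Voltage-gated potassium pores formed the largest family, with 28 of 40 genes at 0, while both store-operated entry genes and 2 of 3 IP3 receptor genes were counted in every cell.

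Of the 166 ion channel genes 48.2% had a count in at least 1 cell, against 66.6% of all genes. The numbers by family are given beside these shares. Most families are small, and no difference between them was tested. Both store-operated entry genes, all 3 IP3 receptor genes, both Piezo genes and all 4 calcium channel beta subunit genes had a count in at least 1 cell. Among voltage-gated potassium pores only 12 of 40 genes did, none of them in every cell. Inward rectifier potassium channels, which set the resting potential of many cells, had counts for 6 of 15 genes. Their summed level was at most 1.98 CPM in any cell, and Kcnj14 had the highest length-scaled level among them, with 3 cells and at most 5 counts. Voltage-gated calcium channel pores had counts for 4 of 10 genes, and voltage-gated sodium channel pores for 4 of 10 genes. The plot of genes by family shows these shares side by side.

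A list of 48 members is known for cardiac, vascular or stromal ion transport. Of these, 9 were counted in every cell (18.8%, against 35.3% of all genes), 19 in some cells and 20 in none (41.7%, against 33.4% of all genes and 51.8% of the 166 ion channel genes). Counts were present in 37.2% of their gene-by-cell values, against 18.6% for all 166 ion channel genes and 50.5% for all genes. The list is part of the 166 genes and was chosen with these data known, so nothing is read from these differences. The genes at 0 in all 12 cells included Hcn4, the main pacemaker channel, and Kcnj2, a principal inward rectifier of cardiomyocytes. Kcnq1 and its partner Kcne1, the potassium channel genes Kcnd2 and Kcna5, and Kcnip2, an accessory subunit of the transient outward current, were also at 0. So were Kcnj8 and Kcnj11, the pores of ATP-sensitive potassium channels, and Cacna1g and Cacna1h, which encode T-type calcium channels. Kcnj3, Kcnj5, Kcnj12, Kcnk1, Kcnk3, Kcnmb1 and Kcnn2 had no counts either. Cardiomyocyte markers were low in the same cells. Of 10 such markers 7 had no counts, among them Myh6, Myh7, Actn2 and Ryr2, and their summed level ran from 0 to 86.6 CPM, nearly all of it Tnnt2.

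A few cardiac channel genes were present at low counts. Cacna1c, the pore of the L-type calcium channel of heart muscle, was counted in 2 cells, with 23 counts in cell 1 and 20 counts in cell 7. Kcnh2, which carries the rapid delayed rectifier current, had 10 counts in cell 1 and 2 counts in cell 9. Kcnd3 was counted in cell 2 alone, with 9 counts, and Kcnma1, the BK channel pore, in cell 3 alone, with 3 counts. Cacna1d had 1 count in cell 6 and 7 counts in cell 11. The other 10 cells allowed no more than the limit of 3 counts for Cacna1c and for Kcnh2.

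Levels can be compared between genes only per length. For this, counts were divided by the summed exon length of each gene and scaled to 1000000 per cell (TPM). The exon length was the union over all annotated transcripts, so genes with many alternative exons come out lower than their main transcript would. Among the genes described here, Orai1 was at 64.7 ± 36.4 TPM (SD, 12 cells), Cacnb3 at 41.6 ± 21.9 TPM and Trpm7 at 26.1 ± 7.35 TPM. Kcnab1 came next at 12.1 ± 13.2 TPM, then Cacna2d1 at 10.9 ± 5.46 TPM and Piezo1 at 9.55 ± 4.56 TPM. Neighbours in this order differed by less than the larger of their SDs, except Trpm7 and Kcnab1, which differed by slightly more.

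Orai1, Cacnb3 and Trpm7 were among the 5 highest ion channel genes in all 12 cells. Their order differed between cells: Orai1 ranked from 1 to 4, Cacnb3 from 2 to 5 and Trpm7 from 1 to 5. Orai1 ranked first in 5 cells and Trpm7 in 1. Among the 14440 genes with a count and a known length, the mean TPM of Orai1 lay above 83.4% of genes, that of Trpm7 above 69.7% and that of Stim1 above 43.4%. The plot of length-scaled levels shows the spread for each gene.

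**Figure D2:**
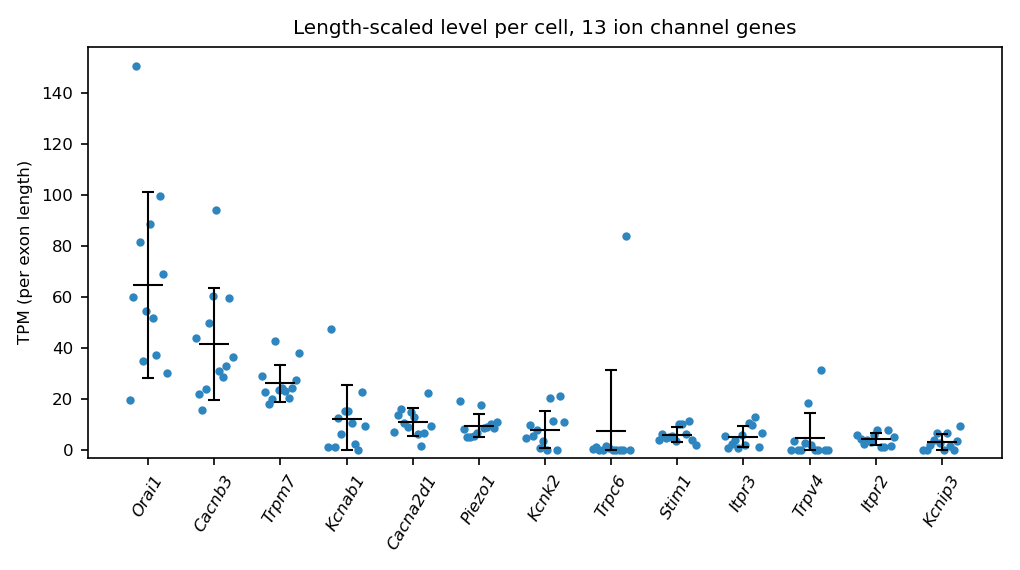
Length-scaled level (TPM, vertical axis) of 13 ion channel genes with a high mean, with a point for each of 12 cells and bars for mean and SD, cut at 0 where the SD exceeds the mean. Orai1, Cacnb3 and Trpm7 led among these, and the means of Trpc6 and Trpv4 rested on 1 or 2 cells.

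Transcripts of the store-operated calcium entry pathway were counted in every cell. Orai1 (chromosome 5, 123015074 to 123030456, mm10), the pore of this pathway, ran from 17.4 CPM in cell 1 over a median of 47.8 CPM to 138 CPM in cell 3. Its next highest value was 78.7 CPM, in cell 10. Stim1 (chromosome 7, 102267806 to 102437319), the calcium sensor of the endoplasmic reticulum, ran from 6.85 CPM in cell 12 over 20.6 CPM to 40.2 CPM in cell 10, with 38.4 CPM in cell 8. Relatives outside the symbol rule were found as widely: Orai2, Orai3 and Stim2 were counted in all 12 cells, at 16.3 ± 10.97, 43.7 ± 26.3 and 40.6 ± 32.5 CPM (SD, 12 cells). Per length, the mean level of Orai3 was 56.0 ± 33.3 TPM, which differed from that of Orai1 by less than either SD. Stim2 was at 22.2 ± 18.6 TPM and Stim1 at 6.05 ± 2.94 TPM. Stim2 was highest in cell 10, at 137 CPM, followed by 50.9 CPM in cell 5, and its mean without cell 10 was 31.9 ± 12.4 CPM (SD, 11 cells).

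All IP3 receptor genes were found, in unequal measure. Itpr2 (chromosome 6, 146108299 to 146502223) was counted in 12 cells, from 5.24 CPM in cell 9 over a median of 23.1 CPM to 41.8 CPM in cell 7. Itpr3 (chromosome 17, 27057304 to 27122223) was also counted in 12 cells, from 1.98 CPM in cell 2 over 16.0 CPM to 40.4 CPM in cell 10. Itpr1 (chromosome 6, 108213096 to 108551109) had counts in 9 cells, with a maximum of 25.5 CPM in cell 5. Per length the order was Itpr3 at 5.18 ± 4.16 TPM, Itpr2 at 4.20 ± 2.41 TPM and Itpr1 at 1.03 ± 1.06 TPM. Itpr3 and Itpr2 differed by less than their spread. The ryanodine receptors, the other family of store release channels, were nearly absent: Ryr2 and Ryr3 had no counts, and Ryr1 was counted in 1 cell, at 1.68 CPM.

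Trpm7 was the steadiest ion channel gene. It encodes a cation channel fused to a kinase that many cell types need for magnesium balance. Trpm7 (chromosome 2, 126791565 to 126876230) ran from 78.4 CPM in cell 9 over a median of 95.7 CPM to 177 CPM in cell 5. Its dispersion residual, the log10 of the squared coefficient of variation minus that of genes of like level, was -0.42, the lowest of the 17 ion channel genes for which it was measured. Trpm4, a calcium-activated cation channel, was found in 11 cells and was highest in cell 10 (15.8 CPM), followed by cell 12 (12.5 CPM). Trpm3 was also counted in 11 cells, at no more than 9.59 CPM, whereas Trpm6, the closest relative of Trpm7, and Trpm8 had no counts.

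Other TRP genes were patchy. Trpc1 had counts in 10 cells, with a maximum of 15.3 CPM in cell 11. Trpv2 had counts in 2 cells only, at 2.03 and 1.85 CPM, and Trpv1, Trpv3, Trpv5 and Trpv6 had none. Trpc4, Trpc7 and Trpc2 had no counts. Trpc6 and Trpv4 were each held largely by 1 cell and are described below.

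Both mechanosensitive Piezo genes were counted. Piezo1 (chromosome 8, 122481698 to 122551329) ran from 18.7 CPM in cell 4 over a median of 30.1 CPM to 73.8 CPM in cell 1, with 63.3 CPM in cell 7. Part of this signal is uncertain, because 24.6% of the Piezo1 exon bases overlap Ctu2 on the other strand, and the libraries do not mark strand. Ctu2 itself had a mean of 27.9 CPM. Piezo2 was found in 8 cells, at a median of 3.96 CPM over all 12, with its highest level, 25.5 CPM, in cell 12.

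Among calcium channel genes, the highest levels were those of accessory subunits. Cacnb3 (chromosome 15, 98630840 to 98644529), a cytoplasmic beta subunit, ran from 24.8 CPM in cell 3 over a median of 47.4 CPM to 137 CPM in cell 7. Cacna2d1 (chromosome 5, 15934691 to 16374511), an extracellular alpha2delta subunit, ran from 6.08 CPM in cell 9 over 45.5 CPM to 95.3 CPM in cell 11. By contrast, the 10 pore genes of this channel family summed to at most 8.11 CPM in any cell, with a mean of 2.76 ± 2.52 CPM (SD, 12 cells). Cacna1a, the pore of P/Q-type channels, was the most widely counted of them, in 7 cells and at no more than 3.59 CPM. Per length, the pore genes summed to 0.566 ± 0.489 TPM and the beta subunit genes to 44.4 ± 23.4 TPM. The alpha2delta genes Cacna2d2, Cacna2d3 and Cacna2d4 had no counts, and Cacnb1 and Cacnb2 were counted in 10 and 8 cells at no more than 9.51 CPM.

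Among sodium channel pore genes, Scn2a, known mainly from neurons, was counted in all 12 cells, from 0.188 CPM in cell 10, which is 1 count, over 6.21 CPM to 16.9 CPM in cell 5. Cells 3 and 8 had 2 counts each. Per length, Scn2a was at 1.63 ± 1.34 TPM. Of the accessory subunit genes, Scn3b and Scn4b were each counted in a few cells, and Scn2b in none.

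Potassium channel genes were mostly low. Kcnab1 (chromosome 3, 65109384 to 65378223), a beta subunit of voltage-gated potassium channels, was the highest. It was counted in 11 cells, at a median of 30.3 CPM, and ran from 0 in cell 10 to 149 CPM in cell 2, with 68.2 CPM in cell 11. Without cell 2 its mean changed from 37.4 to 27.2 CPM. No Kcna gene, the family with which this subunit is known to assemble, was counted in more than 1 cell; Kcna4 had 12 counts in cell 3.

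The highest potassium channel pore was Kcnk2 (chromosome 1, 189207930 to 189402273), a mechanosensitive background channel also known as TREK. It was counted in 10 cells, at a median of 12.7 CPM and a maximum of 36.7 CPM in cell 8, beside 36.3 CPM in cell 11. Cells 7 and 10 had no counts. A noncoding antisense gene covers 12.2% of the Kcnk2 exon bases, and reads of the pair cannot be told apart. Kcnn4, a calcium-activated potassium channel found in many proliferating cells, was counted in 8 cells at no more than 6.42 CPM, and cells 7, 10, 11 and 12 had none. Kcnip3, a calcium-binding accessory protein, had counts in 9 cells and its highest level, 11.1 CPM, in cell 12.

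Of the HCN genes, Hcn2 was counted in 9 cells and was highest in cell 12, at 5.62 CPM. Hcn3 and Hcn4 had no counts.

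**Figure D3:**
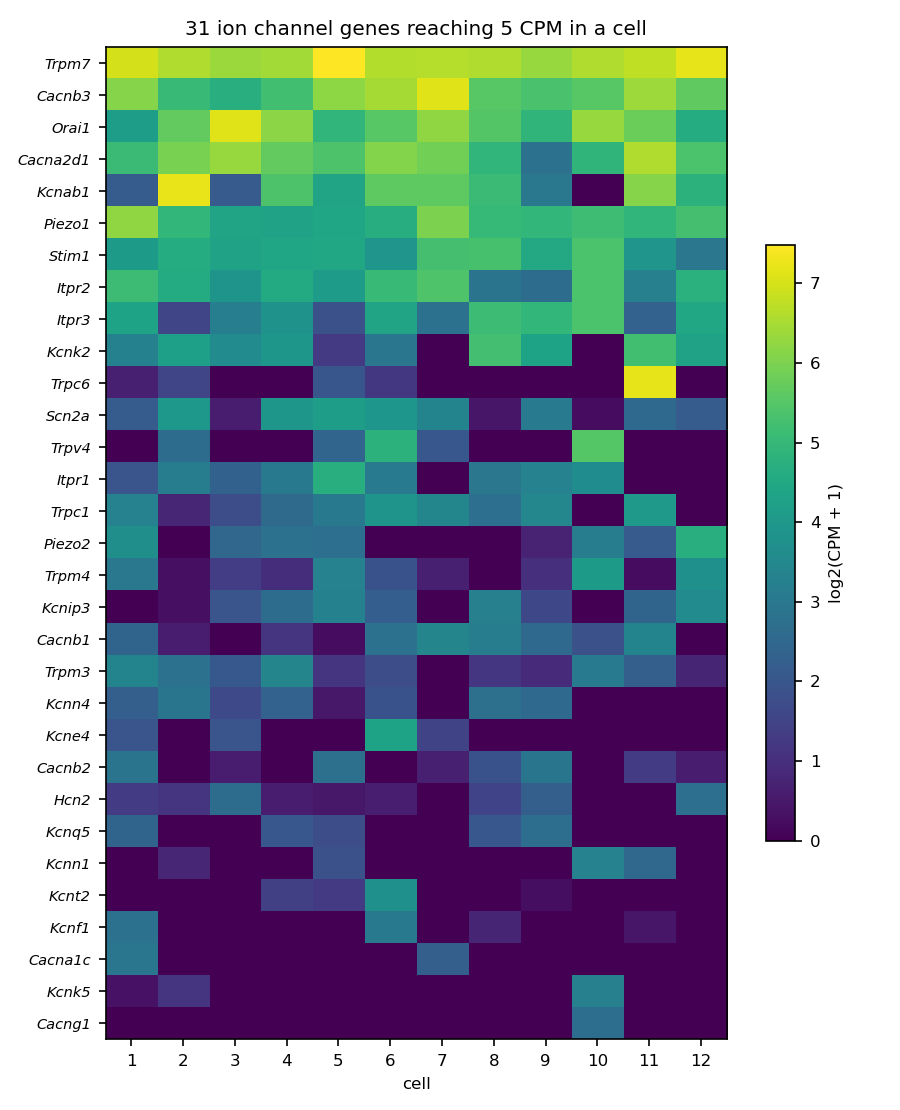
Level of 31 ion channel genes that reached 5 CPM in a cell (rows, ordered by mean CPM) in each of 12 cells (columns), as log2(CPM + 1). Trpm7 was high in every cell, while the lower rows were filled in some cells only, such as Trpc6 in cell 11 and Trpv4 in cells 6 and 10.

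Some genes were carried by a single cell. Of the 22 ion channel genes that reached 10 CPM in a cell, 4 had at least 50% of their summed CPM in 1 cell: Trpc6, Kcnt2, Kcne4 and Trpv4. Among all genes, 639 of 10698 did (5.97%). Trpc6, Kcnt2 and Kcne4 reached 10 CPM through that cell alone, so the level required admits genes by the trait counted, and nothing is read from these numbers.

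Trpc6 (chromosome 9, 8544142 to 8680741), a diacylglycerol-gated cation channel known from smooth muscle, was at 147 CPM in cell 11, with 817 counts. The next cell had 2.98 CPM, and 7 cells had no counts. Cell 11 held 95.5% of the summed level, and the mean fell from 12.9 to 0.624 CPM without it. The summed level of 10 mural markers was also highest in this cell, at 3737 CPM, whereas no other cell exceeded 172 CPM. Nearly all of the sum was Acta2. Only Acta2 (3668 CPM), Pdgfrb (57.6 CPM) and Tagln (11.2 CPM) of the 10 mural markers were counted there, and Myh11, Cnn1, Rgs5, Cspg4, Notch3, Des and Mylk were at 0. Pdgfrb was higher in cell 12 (87.5 CPM) and cell 7 (81.0 CPM) than in cell 11. Trpc1 also had its highest value in cell 11. The part of these genes in the Trpc6 value was not tested.

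Trpv4 (chromosome 5, 114622152 to 114658421), an osmotically and mechanically sensitive cation channel, was at 44.1 CPM in cell 10 and 27.1 CPM in cell 6. Cells 2, 5 and 7 had 3.04 to 5.19 CPM, and 7 cells had no counts. The mean was 6.99 CPM with cell 10 and 3.61 CPM without it. Endothelial markers summed to 14.9 CPM in cell 6, where 2 of 10 markers were counted, and to 9810 CPM in cell 10, where 8 of 10 were counted. Their part in the Trpv4 values was not tested. Kcne4, an accessory subunit of voltage-gated potassium channels, was highest in cell 6, at 19.4 CPM, and no other cell exceeded 2.90 CPM. Kcnt2, a sodium-activated potassium channel, was highest in the same cell, at 12.5 CPM, followed by 1.68 CPM.

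**Figure D4:**
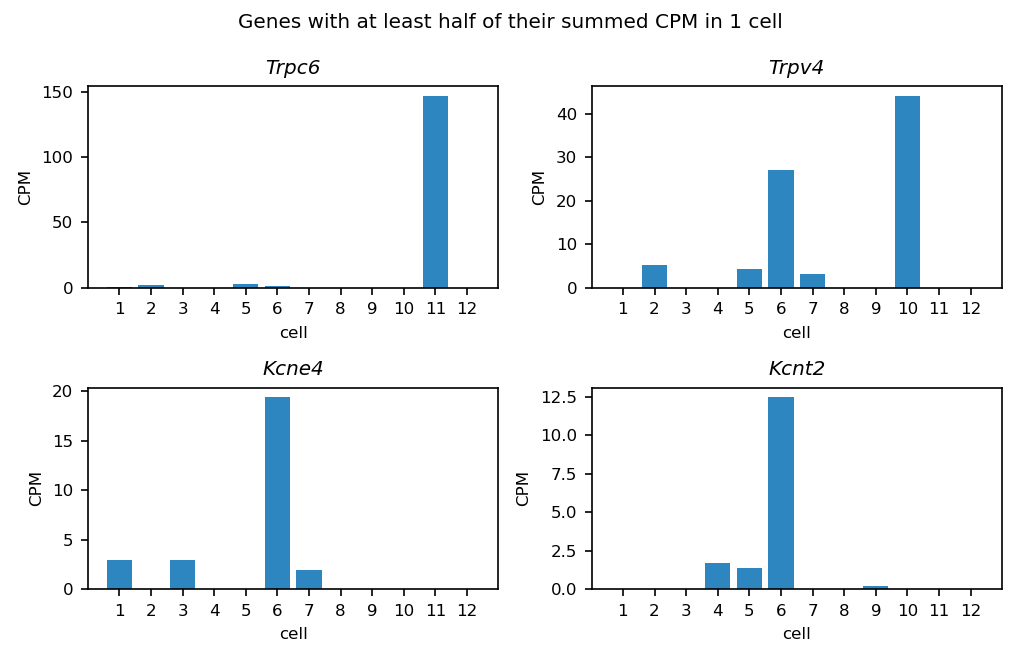
CPM (vertical axis) of the 4 genes that had at least 50% of their summed level in 1 cell, in each of 12 cells (horizontal axis), with a separate scale for each gene. Trpc6 was at 147 CPM in cell 11 and under 3 CPM in the others, Trpv4 was highest in cells 10 and 6, and Kcne4 and Kcnt2 were highest in cell 6.

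The ion channel genes of cell 10 are given here because its endothelial markers stood apart. Of the 80 ion channel genes with a count, 8 had their highest level in cell 10, against 13 in cell 6, 11 in cell 1, and 8 each in cells 2 and 4. Some of these genes had 1 count in total, such as Kcnj4 in cell 1 and Kcnk7, Scn4a and Kcnj6 in cell 6. The same numbers over all genes were not computed, so nothing is read from them. The 8 genes highest in cell 10 were Stim1, Itpr3, Trpv4, Trpm4, Cacng1, Kcnn1, Kcnk5 and Kcnk6. Several of these margins were small: Stim1 was at 40.2 CPM against 38.4 CPM in cell 8, and Itpr3 at 40.4 CPM against 34.2 CPM. Others were wide. Kcnk5, a background potassium channel, was at 8.64 CPM against 1.23 CPM in the next cell, and Cacng1, a gamma subunit of the skeletal muscle calcium channel, had 29 counts in cell 10 and none elsewhere. Kcnab1 had no counts in cell 10 alone. Cell 10 also lacked Kcnk2, Trpc1 and Kcnn4, each of which was missing from at least 1 other cell. Its total over all ion channel genes was 585 CPM, close to the median of 568 CPM.

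All ion channel genes together took a small share of the counts. Their summed level was 562 ± 113 CPM (SD, 12 cells), or 0.0562% of all counts. Cell 9 had the lowest sum, 342 CPM (exact 95% binomial interval 326 to 359 CPM), and cell 11 the highest, 761 CPM (738 to 784 CPM), of which Trpc6 made up 147 CPM. The 12 genes with the highest mean CPM held 86.1% of the mean sum. For 7 cell cycle genes taken from the study, the sum was highest in cell 9, at 3725 CPM, and lowest in cell 11, at 33.7 CPM. Their part in the sums of ion channel genes was not tested. Cell 5, second in cell cycle genes at 2495 CPM, had 571 CPM of ion channel genes.

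The number of ion channel genes counted also differed between cells. The median was 31.5 genes, with 43 in cell 1, 42 in cell 6 and 20 in cell 7. Cells 7, 8, 10, 11 and 12 had 20, 26, 22, 25 and 23 genes, and the other 7 cells had 30 to 43. The same 5 cells had fewer genes counted in all, 10022 to 10181, against 11216 to 11950 in the others. Pearson's r between the number of ion channel genes and the number of all genes was 0.94 over 12 cells, and Spearman's rho was 0.86. Both numbers come from the same library and share its capture, and the ion channel genes are part of the total, so this is a description. The 5 cells had the higher total counts, of at least 5258541. After each cell was thinned to 3453708 counts, they had 19 to 25 ion channel genes and the others 29 to 43.

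**Figure D5:**
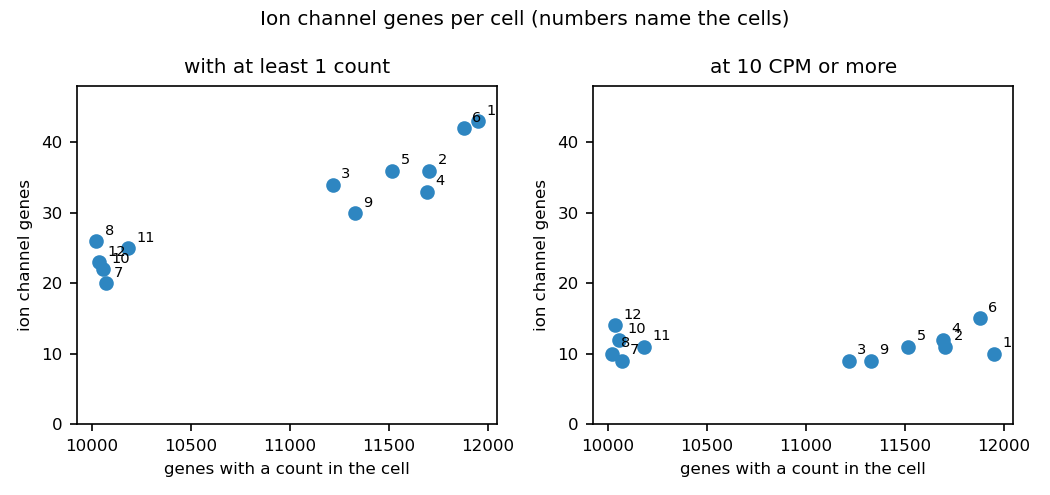
Number of ion channel genes (vertical axis) against the number of all genes counted in the same cell (horizontal axis), with a numbered point per cell, for a threshold of 1 count (left) and of 10 CPM (right). At 1 count the 5 cells with the fewest genes had 20 to 26 ion channel genes and the others 30 to 43, while at 10 CPM all cells lay between 9 and 15.

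This difference lay in weakly expressed genes. At 10 CPM or more, cells 7, 8, 10, 11 and 12 had 9 to 14 ion channel genes and the others 9 to 15. Of the 149 ion channel genes with a mean under 5 CPM, 63 were counted in any cell. Cell 1 had 27 of these and cell 6 had 26, whereas cell 7 had 7. As a share of all genes counted, ion channel genes made up 0.199% in cell 7 and 0.360% in cell 1.

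Variation between cells could be set beside that of other genes for 17 ion channel genes, those whose mean reached 5 CPM. Their median dispersion residual was 0.09 ± 0.40 (SD over genes), against 0 for all 9701 genes measured. Residuals were above 0 for 11 of the 17, and for 4829 of the 9701. The median was 0.05 for the 32 genes whose mean reached 1 CPM, 0.01 for the 9 whose mean reached 20 CPM, and 0.05 to 0.14 when each cell was left out in turn, with the lowest value without cell 12. These values lie within the SD over genes. The highest values were those of Trpc6 (1.30) and Trpv4 (0.69), whose means reached 5 CPM only through cell 11 and cell 10, so that a high value is built into their entry. Kcnab1 followed (0.61), and Trpm7 and Stim1 (-0.19) had the lowest. Piezo2 (0.33) also owed its entry to its highest cell, because its mean was 3.65 CPM without cell 12. The median and the number above 0 include Trpc6, Trpv4 and Piezo2.

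Levels of pairs of genes, either partners or members of the same family or channel type, were compared across cells. Of 18 pairs chosen, 7 had both means at 5 CPM or more. On log2(CPM + 1), Orai1 and Stim1 had r = 0.43 and rho = 0.36 over 12 cells, and Trpc1 and Trpc6 had r = 0.39 and rho = 0.43. Cacna2d1 and Cacnb3 had r = 0.21. The pairs among Itpr1, Itpr2 and Itpr3, and Piezo1 with Piezo2, lay between -0.12 and 0.08. When each cell was left out in turn, r for Orai1 and Stim1 ran from 0.26 to 0.57. That for Cacna2d1 and Cacnb3 ran from 0.08 to 0.43. That for Trpc1 and Trpc6 was 0.17 without cell 11, which had the highest level of both genes and through which alone Trpc6 reached 5 CPM. The IP3 receptor pairs ran from -0.35 to 0.38 and the Piezo pair from -0.25 to 0.28, so 1 cell can set the sign of these values. The Piezo pair was measured only with cell 12 included, because the mean of Piezo2 was 3.65 CPM without it. The genes of a pair share library and depth, and no correlation is read as a relation here.

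A further list held 28 genes for calcium entry, stores, pumps and mitochondrial transport that the symbol rule did not take, among them the channel genes Orai2, Orai3, Ryr1 and Mcu. Of these, 23 were counted (82.1%) and 14 were counted in every cell (50%), against 66.6% and 35.3% of all genes. The list was picked by hand and the difference was not tested. Atp2a2, the pump that refills the endoplasmic reticulum, was at 140 ± 43.5 CPM (SD, 12 cells), and Atp2b1, a calcium pump of the plasma membrane, at 86.9 ± 26.8 CPM. Saraf, which restrains store-operated entry, was at 278 ± 100 CPM, and Calr, a calcium-binding chaperone of the endoplasmic reticulum, at 930 ± 308 CPM. Mcu, the mitochondrial calcium uniporter, was counted in 12 cells at 28.9 ± 25.1 CPM, with 99.5 CPM in cell 10, and at 22.5 ± 12.3 CPM (SD, 11 cells) without that cell. By contrast, Slc8a1, the sodium-calcium exchanger of heart muscle, was counted in 4 cells at no more than 1.86 CPM, and the muscle genes Pln and Casq2 in 2 and 4 cells.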

How the data were processed

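Libraries of 12 individually picked CPCs were made with Smart-Seq v4 and Nextera XT. Paired reads were aligned by the authors to mm10 (STAR 2.5.2b, default settings), and reads mapping to 1 place were retained. The table deposited by the authors holds unnormalised counts for each gene in each cell. The counting program, annotation and strand rule are not given in the sources used here, so overlapping or near-identical genes are uncertain.

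From these counts, CPM was computed by total count. TPM used union exon lengths of GENCODE vM21 (same build), which also gave positions, counted from 1. All 166 ion channel genes matched it. Detection means at least 1 count. Dispersion residuals were distances from a moving median (201 genes, ordered by mean CPM), for genes whose mean reached 5 CPM and that had counts in 3 or more cells. Members, lists and alternatives were chosen with earlier results of these data known. The named genes were the 25 with the highest mean TPM, the highest of each of 20 families, a list of 48, and genes held by 1 cell. Some genes that the rule names are not reported here. Others named outside this rule were chosen after their values were seen. All cells formed 1 sample, so nothing was tested. Doublets were not called in hand-picked cells. Steps were tested on simulated data. Scalings, thresholds, gene sets and cells left out were varied. Software was R 4.3.3 with edgeR 4.0.16 (TMM scaling only), matplotlib 3.10.9, scipy 1.17.1, pandas 2.3.3, numpy 2.4.6 and Python 3.11.15.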

Additional observations from a re-analysis of the deposited data

How the results depend on the processing

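Of 105 alternatives that left out no cell by turn, 16 moved a result by more than its spread, which was 1 SD over cells, a jackknife error for correlations and a factor of 1.5 for numbers of genes. Thresholds moved detection by construction. The median number of ion channel genes per cell was 20 at 10 counts, 23 at 1 CPM and 11 at 10 CPM, and the share of values was 12.3% at 10 counts and 6.68% at 10 CPM. At 10 counts 37 genes were counted in some cells; at 10 CPM 5 genes were counted in every cell, 17 in some and 144 in none. With pore-forming subunits only, the median was 21.5 genes per cell, 6 genes were counted in every cell and the median summed level was 323 CPM. In TPM that level was 272, on another scale. The number of genes held by 1 cell was 50 without a limit on the level, 1 at 50 CPM and 2 at 75% of the summed level. Other scalings (TMM, median-of-ratios) moved none of the results they bear on by more than its spread. The alternative without cells 3 and 10 was chosen after seeing the data. It was run for detection, the summed level and the genes held by 1 cell, and moved none of these by more than its spread. With 12 cells, leaving out 1 or 2 seldom shifts a median by 1 SD over cells, so such checks are weak. The factor of 1.5 is also wide: genes counted in no cell went from 86 to 121 at 10 counts within it. Leaving out each cell in turn moved the median from 30 to 33 genes per cell and the median summed level from 565 to 571 CPM. Without cell 11 the mean of Trpc6 was 0.624 CPM, and without cell 10 that of Trpv4 was 3.61 CPM. No paired analysis was possible because all cells belong to 1 group. Depth limits genes near 3 counts, and 12 cells of 1 sample limit every spread.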

Other observations

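Other channels and ion transporters, outside the symbol rule, were described from lists picked by hand, with no test between lists. Over all genes, 66.6% had a count and 35.3% were counted in every cell. Of 29 chloride and volume channel genes, 27 had a count (93.1%) and 14 were counted in every cell (48.3%). Lrrc8c, a subunit of the volume-regulated anion channel, was at 154 ± 75.5 CPM (SD, 12 cells), and Lrrc8a, the subunit this channel requires, was counted in 12 cells at 12.6 ± 9.11 CPM. Ano6, a calcium-activated lipid scramblase and channel, was at 71.2 ± 35.7 CPM, and Ano1, a calcium-activated chloride channel, had counts in 11 cells, with 92.7 CPM in cell 5. Among relatives of the TRP family, the lysosomal channel Mcoln1 was at 84.9 ± 33.3 CPM. Pkd2, a cation channel of the primary cilium, was highest in cell 1, at 228 CPM, followed by 114 CPM in cell 5. Mcoln2 had 31.5 CPM in cell 10, and no other cell exceeded 0.527 CPM.

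Of 27 ionotropic receptor and acid-sensing or epithelial sodium channel genes, 17 had a count (63.0%) and 2 were counted in every cell (7.41%): P2rx4, an ATP-gated channel, at 57.7 ± 30.6 CPM, and Gria3, a glutamate receptor subunit, at 39.9 ± 35.5 CPM. Among gap junction genes, Gja1 was at 134 ± 112 CPM and was counted in every cell. Gja4, known from endothelium, had 137 CPM in cell 10, followed by 4.79 CPM in cell 4. Atp1b3, a subunit of the sodium-potassium pump, was counted in every cell and reached 1572 CPM in cell 10 against 511 CPM in the next. Abcc9, a partner of ATP-sensitive potassium channels, was counted in cell 10 only, at 6.20 CPM, and Abcc8 in none.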
